A study of Mus musculus with 17 samples.

Results

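The 10 genes Ptgs2, Ptgs1, Ptges, Ptgds, Ptgis, Hpgd, Ptger4, Alox5, Alox5ap and Alox15 make or inactivate prostaglandins and leukotrienes or, in the case of Ptger4, receive a prostaglandin. They were chosen by gene name from the 35285 genes of the expression table, with the values of these same libraries already known, so that their levels and differences are given below as a description. The adjusted p-values come from a fit across all genes and are not independent support for the choice. All 10 were found once each in the table and passed the filter on low values in every comparison.

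The data were RNA sequencing libraries of the cochlea of 17 male C57BL/6J mice, wild type by their labels and 8 weeks old at the start, with 1 library per mouse, taken 2 days after exposure. The control group (n = 3) had saline injections and no noise. The NE group (noise exposure, n = 7) heard noise of 8 to 16 kHz at 100 dB for 2 h, and the study's methods describe no injection for it. The brimonidine group (n = 7) heard the same noise and had 3 intraperitoneal injections of 1 mg/kg brimonidine, an agonist of α2-adrenergic receptors, on the day before, the day of and the first day after exposure. This schedule and the octave band of noise are those of the study's methods, whereas the labels call the noise broadband and place the injections before exposure. No sequenced group had brimonidine without noise, so an effect of the drug alone cannot be told apart from one that needs noise. As described, the comparison of brimonidine with NE also cannot tell an effect of the drug apart from one of the injections.

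Eicosanoids are short-lived lipid signals made from arachidonic acid, which phospholipases A2 release from membranes. Cyclooxygenases convert it to prostaglandin H2, which a separate synthase turns into each prostanoid, and 15-hydroxyprostaglandin dehydrogenase inactivates the products. The 5-lipoxygenase branch, mostly a property of myeloid cells, leads to leukotrienes, and 12/15-lipoxygenase makes other oxidised fatty acids. In the cochlea prostaglandins are known as regulators of blood flow and of inflammation after injury.

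The source was taken as whole cochlea, whose RNA includes bone marrow, vessels and bone. The study's methods name cochleae in the sequencing section but basilar membrane tissue in the section on RNA extraction and qPCR. The labels name the tissue as cochlear cells and the cell type as interstitial cells. Hair cell markers summed to 8.21 to 15.1 FPKM (fragments per kilobase of exon, scaled to the library's mapped fragments) per library over 5 genes, all detected, and the late neutrophil markers S100a8, S100a9, Csf3r, Cxcr2, Retnlg and Mmp9 to 6200 to 44611 FPKM. Depth recovered from the steps of the values was 14457732 to 18288855 fragments per library. Controls 2 and 3 stood apart. Control 2 had the lowest level of all 17 libraries for each of the 6 late neutrophil genes (sum 6200 FPKM, against 28742 in control 1 and 33459 in control 3) and the highest sum of 6 central neuron genes (468 FPKM, against 170 and 175). Control 3 had the highest Ptgs2 and Ptges of all 17 libraries. Brimonidine 4 had a choroid plexus sum of 730 FPKM, of which Ttr made 725, against 3.82 to 62.3 in the others. In all 3 controls the central neuron sum lay above every NE library (13.5 to 27.6 FPKM) and every brimonidine library (13.5 to 61.2 FPKM). The 5 central glia genes did likewise, at 127 to 287 FPKM in the controls, 18.3 to 26.9 in NE and 15.0 to 42.6 in brimonidine libraries. Fewer cells of a type and less RNA per cell cannot be told apart in such bulk samples.

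Sequences 5′ of the cyclooxygenase genes are shown first, since Ptgs2 and Ptgs1 catalyse the same step but varied differently across these libraries. Ptgs2 (ENSMUSG00000032487) lies at chr1:150100031-150108227 on the plus strand of mm10, and Ptgs1 (ENSMUSG00000047250) at chr2:36230426-36252272, also on the plus strand. Each RefSeq window (GRCm38.p6) holds 250 bases before and 50 bases after the annotated start, at chr1:150099781-150100080 for Ptgs2 and chr2:36230176-36230475 for Ptgs1. Capitals mark a C/EBP motif (TTGCNNAA) that begins 69 bases before the start of Ptgs2, and an overlapping pair 13 bases after it, the short cAMP response motif CGTCA and the E-box CACGTG.
Ptgs2 promoter: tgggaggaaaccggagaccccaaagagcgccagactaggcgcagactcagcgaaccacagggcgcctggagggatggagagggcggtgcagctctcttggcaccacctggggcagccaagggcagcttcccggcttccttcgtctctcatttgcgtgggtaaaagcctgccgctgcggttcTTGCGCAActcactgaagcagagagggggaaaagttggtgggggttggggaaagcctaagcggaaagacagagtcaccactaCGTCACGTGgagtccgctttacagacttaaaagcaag
Ptgs1 promoter: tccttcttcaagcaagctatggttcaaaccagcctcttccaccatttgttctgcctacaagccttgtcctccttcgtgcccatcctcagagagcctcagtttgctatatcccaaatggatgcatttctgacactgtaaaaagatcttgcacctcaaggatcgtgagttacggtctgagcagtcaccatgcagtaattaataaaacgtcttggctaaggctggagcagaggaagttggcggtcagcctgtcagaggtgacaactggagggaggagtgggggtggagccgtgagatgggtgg

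In the Ptgs2 window 59.3% of bases were G or C, and in the Ptgs1 window 50.7%, against a median of 52.7% over the 32851 promoters of the table. The C/EBP motif was present in 10.8% of those promoters, CGTCA in 20.8% and CACGTG in 7.15%, on either strand. The Ptgs2 window also held 1 GC box (GGGCGG, in 35.7% of promoters) 170 bases before the start. It held no match to the NF-kB motif GGANTTTCC, the AP-1 motif TGANTCA, the full cAMP element TGACGTCA, CCAAT or TATAAA (the last on the given strand only), and the Ptgs1 window matched none of the 9 motifs. These matches are descriptions of letters in 300 bases and no binding was measured. Of the 10 genes, 7 had a promoter in the RefSeq table.

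Ptgs2, the inducible cyclooxygenase, was present at low levels. Its FPKM was 1.69, 1.61 and 5.30 in controls 1, 2 and 3. The NE libraries ranged from 3.07 to 4.52 with a median of 3.37, and the brimonidine libraries from 1.58 to 2.84 with a median of 2.17. Every brimonidine library was below every NE library, with controls 1 and 2 among the brimonidine values and control 3 above all others.

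The mean Ptgs2 level was 2.19 ± 0.438 FPKM (SD, n = 7) in the brimonidine group and 3.62 ± 0.553 FPKM (SD, n = 7) in the NE group, a ratio of 0.605. On the log2(FPKM + 1) scale the difference was -0.54 (SE 0.09, 95% interval -0.74 to -0.34). Its unadjusted p of 4.47e-05 (limma) ranked 3rd of 15707 genes, and its adjusted p was 0.172, so it did not pass the threshold of 0.05. Leaving out any 1 library kept the difference between -0.58 and -0.49, the smallest being that without brimonidine 4, the lowest Ptgs2 library and the one with the choroid plexus signal. The adjusted p ran from 0.0617 to 0.9999 over all alternatives tried. In the full comparison 0% of genes tested passed both thresholds, an adjusted p below 0.05 with a log2 fold change of 1 or more in either direction, and 0.00637% passed the adjusted p alone. Groups did not overlap for 0.14% of genes tested.

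Counting error is part of this picture, since Ptgs2 was read from 112 to 390 fragments per library. The closest pair, NE 1 at 3.07 FPKM (247 fragments) and brimonidine 3 at 2.84 FPKM (237 fragments), had overlapping 95% Poisson intervals of 2.70 to 3.48 and 2.49 to 3.22. These intervals cover counting error only. The highest NE library, NE 5 at 4.52 FPKM, and the lowest brimonidine library, brimonidine 4 at 1.58 FPKM, were far outside each other's interval.

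**Figure D1:**
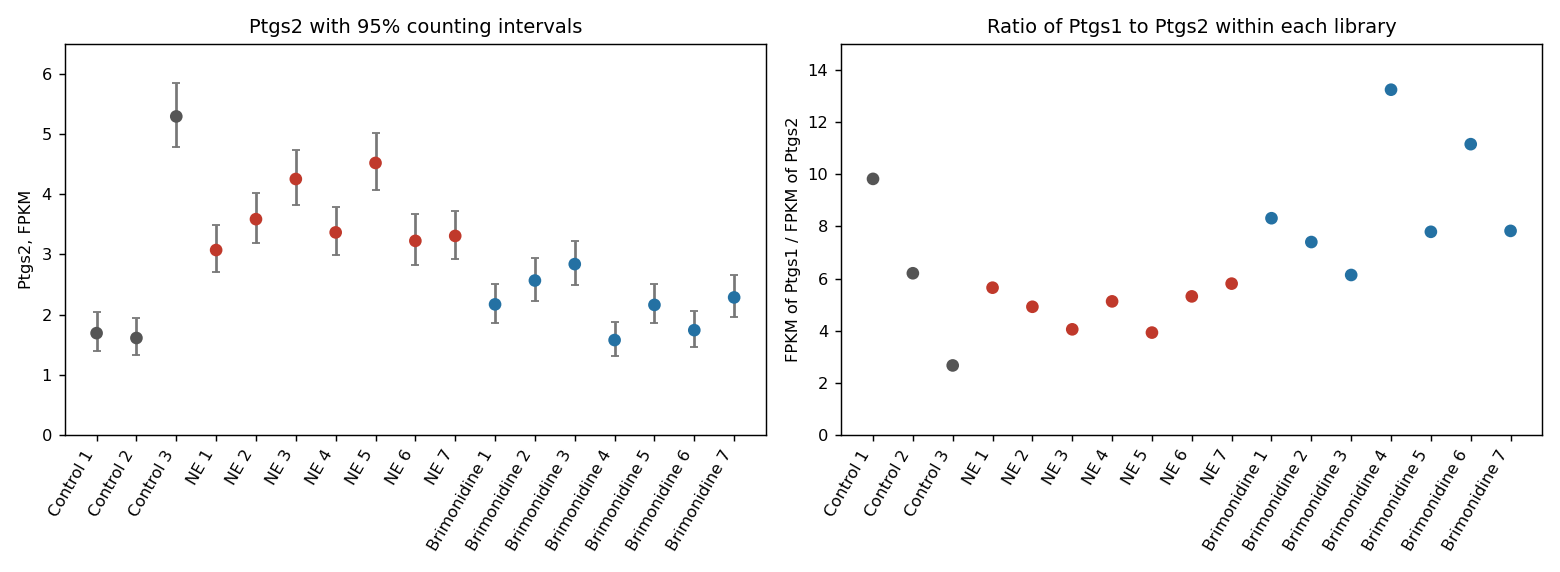
Left, Ptgs2 level (FPKM) in each of the 17 libraries with its 95% Poisson counting interval; right, the FPKM of Ptgs1 divided by that of Ptgs2 in the same libraries, with grey points for control, red for NE and blue for brimonidine. The 7 NE ratios lie between 3.92 and 5.80, all below the 7 brimonidine ratios of 6.13 to 13.2, while the 3 controls spread from 2.66 to 9.82.

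Ptgs1, the constitutive cyclooxygenase of platelets and many tissues, was more abundant per length than Ptgs2 in every library, by 2.66 to 13.2 times. It measured 16.6, 9.99 and 14.1 FPKM in the controls, 17.1 to 19.2 with a median of 17.4 in the NE libraries and 16.8 to 20.9 with a median of 18.0 in the brimonidine libraries. Control 2 was the lowest library and the exposed groups overlapped. Between brimonidine and NE the log2 difference was 0.06 (SE 0.05, 95% interval -0.04 to 0.16, limma adjusted p = 0.901).

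Within a library the ratio of Ptgs1 to Ptgs2 does not depend on how libraries are scaled. The ratio was 4.97 ± 0.735 (SD, n = 7) in the NE group and 8.84 ± 2.47 (SD, n = 7) in the brimonidine group, and the ranges did not overlap (3.92 to 5.80 against 6.13 to 13.2). The controls had ratios of 9.82, 6.20 and 2.66, which cover both exposed groups. The ratio of Ptger4 to Ptgs2 behaved alike, at 0.509 to 0.831 in NE and 0.921 to 1.77 in brimonidine libraries. The ratio of Ptges to Ptgs2 overlapped, at 2.46 to 4.09 in NE and 3.93 to 5.83 in brimonidine libraries. These ratios share the Ptgs2 values and are not separate evidence.

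Both exposed groups had more Ptgs1 than the controls in every library. Against control the log2 difference was 0.38 in the NE group (SE 0.12, limma adjusted p = 0.058) and 0.44 in the brimonidine group (SE 0.13, adjusted p = 0.0389), so that Ptgs1 rose in the second comparison by the adjusted p alone. The lowest control decided much of this, since without control 2 the differences were 0.19 (adjusted p = 0.17) and 0.25 (adjusted p = 0.106). Over all alternatives the adjusted p ran from 0.0111 to 0.451 in NE and from 0.0047 to 0.418 in brimonidine. The 2 comparisons share their controls. Sums of 5 megakaryocyte and platelet genes were 322 to 655 FPKM in controls, 395 to 551 in NE and 436 to 673 in brimonidine libraries, with control 2 the highest of the controls.

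The differences of Ptgs2 from control moved with the control left out. The log2 difference of NE from control was 0.38 (SE 0.24, limma adjusted p = 0.293) with all libraries and 0.79 (adjusted p = 0.00547) without control 3. Without control 1 it was 0.18 (adjusted p = 0.63), and without control 2 it was 0.16 (adjusted p = 0.79). The log2 difference of brimonidine from control was -0.16 (SE 0.25, adjusted p = 0.67). This turned to 0.26 (adjusted p = 0.246) without control 3 and to 0.016 with quantile normalization. The adjusted p ranged over the alternatives from 0.00547 to 0.79 and from 0.246 to 0.992.

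**Figure D2:**
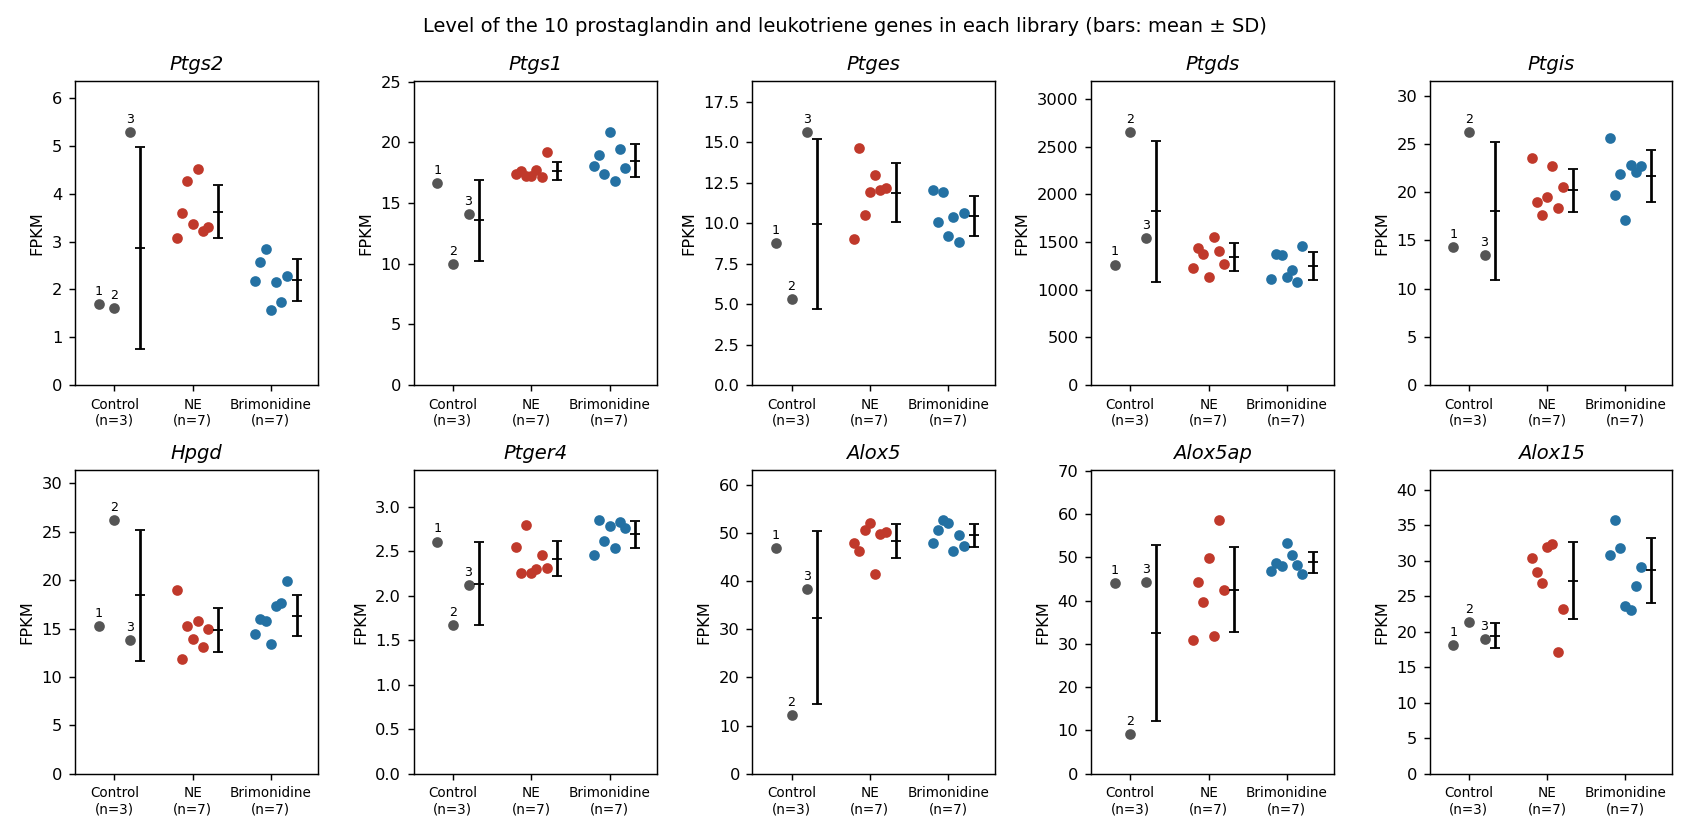
FPKM of each of the 10 genes in every library, with the 3 controls numbered, and black bars for the mean ± SD of each group (control n = 3, NE n = 7, brimonidine n = 7). Ptgs2 is the only one of the 10 in which the NE and brimonidine points do not overlap; control 2 is the lowest library for Alox5, Alox5ap, Ptgs1, Ptges and Ptger4 and the highest for Ptgds, Ptgis and Hpgd.

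Ptges, the microsomal prostaglandin E synthase that is often induced together with Ptgs2, lies at chr2:30889471-30929863 (minus strand). It measured 8.80, 5.35 and 15.7 FPKM in controls 1 to 3, 9.00 to 14.7 with a median of 12.1 in NE and 8.85 to 12.1 with a median of 10.4 in brimonidine libraries. Control 3 was the highest of the 17 libraries, as it was for Ptgs2, and control 2 the lowest. The brimonidine group was lower than NE by 0.17 on the log2 scale (-0.17, SE 0.09, limma adjusted p = 0.872), with overlapping groups. NE differed from control by 0.34 (adjusted p = 0.342). Without control 3 the difference was 0.70 (adjusted p = 0.0397, the lowest over the alternatives). Without control 2 it was 0.0016 (adjusted p = 0.997, the highest).

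Ptgds, the lipocalin-type prostaglandin D synthase, was by far the most abundant of the 10 genes. Its mean of 1387 FPKM over the 17 libraries ranked 23rd of the 35285 genes. It lies at chr2:25466709-25470046 (minus strand). The controls measured 1263, 2656 and 1542 FPKM, the NE libraries 1128 to 1549 with a median of 1378, and the brimonidine libraries 1075 to 1452 with a median of 1207. Only control 2 stood clear of the other libraries. That library also had the highest sum of 4 leptomeningeal genes (47.7 FPKM, against 15.0 to 26.2 in the other 16). This was not particular to leptomeningeal genes. Among other lists, its central neuron (468 FPKM), fibroblast (923), osteoblast (581) and cochlear duct and ligament (1333) sums were also the highest of the 17 libraries. The part of any of these cells in its Ptgds level was not tested. Log2 differences were -0.37 for NE and -0.48 for brimonidine against control (limma adjusted p = 0.328 and 0.189), and -0.06 and -0.17 without control 2. Brimonidine differed from NE by -0.11 (SE 0.10, adjusted p = 0.92).

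Ptgis, prostacyclin synthase, is best known from vessel walls and lies at chr2:167191805-167240604 (minus strand). Its levels were 14.3, 26.3 and 13.5 FPKM in the controls, 17.6 to 23.5 with a median of 19.5 in NE and 17.1 to 25.6 with a median of 22.1 in brimonidine libraries. Controls 1 and 3 were below all 14 exposed libraries, whereas control 2 was above all of them. With all controls the log2 difference from control was 0.21 in NE and 0.31 in brimonidine (limma adjusted p = 0.421 and 0.249). Without control 2 it was 0.50 (adjusted p = 0.0182) and 0.60 (adjusted p = 0.0109). These were the lowest adjusted p-values over the alternatives, the highest being 0.874 and 0.62. The smallest differences with 1 library left out were 0.05 in NE and 0.14 in brimonidine. Of the controls, control 2 also had the highest sums of fibroblast (923 FPKM), mural (74.2 FPKM) and endothelium genes (41.6 FPKM). The same held for osteoblast (581 FPKM) and cochlear duct and ligament genes (1333 FPKM), among other lists. The part of any of these cells in its Ptgis level was not tested.

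Hpgd, the dehydrogenase that inactivates prostaglandins, lies at chr8:56294585-56321043 (plus strand) and followed the same order of controls, with 15.2, 26.2 and 13.9 FPKM. It ranged from 11.8 to 19.0 with a median of 15.0 in NE and from 13.4 to 19.9 with a median of 16.0 in brimonidine libraries. Brimonidine and NE overlapped widely (log2 difference 0.14, SE 0.10, limma adjusted p = 0.9). NE differed from control by -0.25 (adjusted p = 0.349), a sign that turned without control 2 (0.015).

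Ptger4, the EP4 receptor for prostaglandin E2, lies at chr15:5206661-5244187 (minus strand). Its level was 2.61, 1.67 and 2.12 FPKM in the controls, 2.25 to 2.80 with a median of 2.31 in NE and 2.46 to 2.85 with a median of 2.76 in brimonidine libraries. Its log2 difference between brimonidine and NE was 0.11 (SE 0.05), with an unadjusted p of 0.041 and an adjusted p of 0.857 (limma). In NE libraries every Ptgs2 value lay above every Ptger4 value, whereas in brimonidine libraries the 2 genes overlapped.

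Alox5, 5-lipoxygenase, and Alox5ap, the membrane protein that presents arachidonic acid to it, together make the first step of leukotriene synthesis and are typical of neutrophils, monocytes and mast cells. Alox5 lies at chr6:116410077-116461178 (minus strand) and Alox5ap at chr5:149264767-149288153 (plus strand). Alox5 measured 46.8, 12.2 and 38.2 FPKM in the controls, 41.5 to 52.0 with a median of 49.8 in NE and 46.1 to 52.6 with a median of 49.6 in brimonidine libraries. Alox5ap measured 44.1, 9.09 and 44.4 FPKM in the controls, 30.9 to 58.5 with a median of 42.5 in NE and 46.1 to 53.3 with a median of 48.3 in brimonidine libraries. Control 2 was far below all other libraries in both genes.

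In control 2 neutrophil genes were low as well, and the part of neutrophils in its Alox5 and Alox5ap levels was not tested. Its late neutrophil sum was 6200 FPKM and its early neutrophil sum (Mpo, Elane, Prtn3, Ctsg) 607 FPKM, against 25411 to 44611 and 2412 to 3955 FPKM in the other 16 libraries. With control 2, the log2 difference from control was 0.76 for Alox5 and 0.64 for Alox5ap in NE (SE 0.31 and 0.41, limma adjusted p = 0.119 and 0.301), and 0.79 and 0.86 in brimonidine (adjusted p = 0.0961 and 0.132). Without control 2 the same 4 differences were 0.18, -0.09, 0.22 and 0.14, none of them passing the test. Without control 1 they were larger and Alox5 passed both thresholds, at 1.11 in NE (adjusted p = 0.0288) and 1.15 in brimonidine (adjusted p = 0.0204), as did Alox5ap in brimonidine (1.22, adjusted p = 0.0463). Over all alternatives the adjusted p ran from 0.0288 to 0.464 and from 0.126 to 0.87 for Alox5 and Alox5ap in NE, and from 0.0204 to 0.42 and from 0.0463 to 0.477 in brimonidine.

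Between the exposed groups Alox5 differed by 0.03 (SE 0.05, 95% interval -0.07 to 0.14, limma adjusted p = 0.968) and Alox5ap by 0.22 (SE 0.11, 95% interval -0.02 to 0.47, adjusted p = 0.87). The spread of Alox5ap was 9.73 FPKM (SD, n = 7) in NE and 2.43 FPKM (SD, n = 7) in brimonidine libraries, a difference in spread that was not tested. The highest Alox5ap, 58.5 FPKM in NE 6, was in the NE library with the highest late neutrophil sum (44611 FPKM), while the lowest, 30.9 FPKM in NE 1, had a sum of 30091 FPKM.

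**Figure D3:**
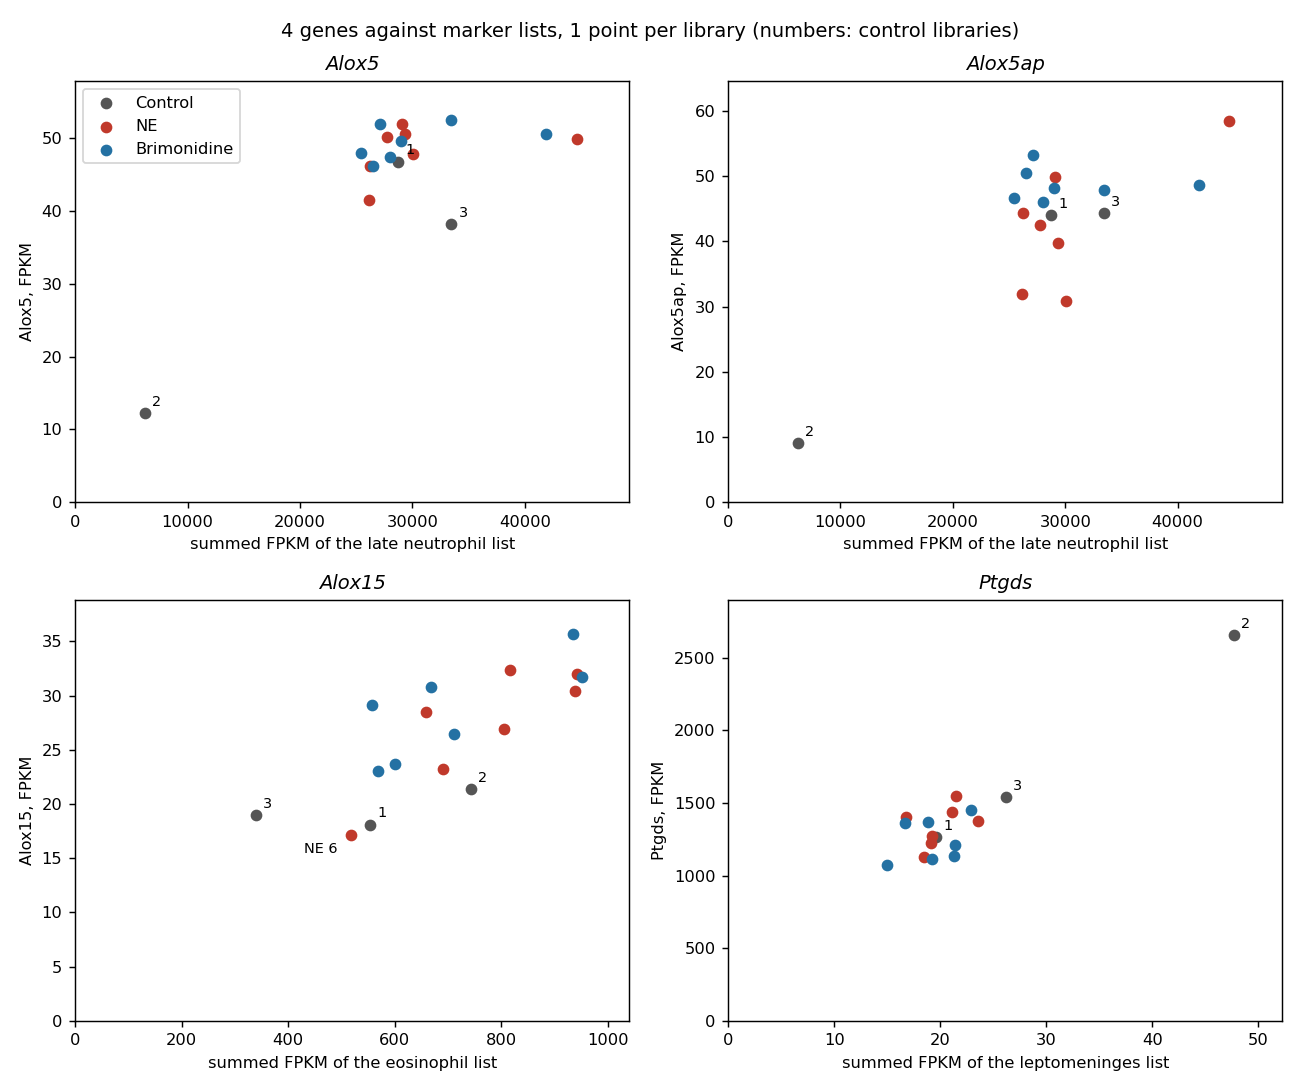
FPKM of Alox5, Alox5ap, Alox15 and Ptgds (vertical axes) against the summed FPKM of a marker list (horizontal axes: late neutrophil, late neutrophil, eosinophil, leptomeninges), 1 point per library and the controls numbered. Control 2 lies alone at 6200 FPKM of neutrophil genes with 12.2 FPKM of Alox5, and alone at 47.7 FPKM of leptomeningeal genes with 2656 FPKM of Ptgds.

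Alox15, the 12/15-lipoxygenase of eosinophils and some macrophages, lies at chr11:70344152-70352031 (minus strand). Its control values were close together, 18.1, 21.4 and 19.0 FPKM. In NE it ranged from 17.1 to 32.4 with a median of 28.5, and in brimonidine libraries from 23.0 to 35.7 with a median of 29.1. All 7 brimonidine libraries and 6 of 7 NE libraries were above all controls, the exception being NE 6 at 17.1 FPKM. Brimonidine exceeded control by 0.52 on the log2 scale (SE 0.13, limma adjusted p = 0.0241), so that Alox15 rose by the adjusted p alone, although not without control 3 (0.51, adjusted p = 0.0602). NE differed from control by 0.44 (SE 0.17, adjusted p = 0.112), and by 0.54 (adjusted p = 0.0137) without NE 6. Over the alternatives the adjusted p ran from 0.0109 to 0.1 for brimonidine and from 0.0137 to 0.25 for NE. Brimonidine and NE differed by 0.08 (SE 0.13, adjusted p = 0.968).

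The 4 eosinophil genes Prg2, Epx, Ccr3 and Il5ra summed to 554, 744 and 340 FPKM in the controls, 518 to 942 in NE and 557 to 952 in brimonidine libraries. NE 6 had the lowest sum of the NE group, as it had the lowest Alox15. Control 2, with more eosinophil signal than controls 1 and 3, also had the highest Alox15 of the controls. The 6 macrophage genes summed to 241, 275 and 265 FPKM in the controls, 271 to 318 in NE and 272 to 335 in brimonidine libraries, with 6 of 7 NE and 5 of 7 brimonidine libraries above all 3 controls. Control 2 had the highest macrophage sum of the controls as well. The part of eosinophils and macrophages in the Alox15 difference was not tested.

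Ordered by level per length, the NE means ran from Ptgds (1342 FPKM) through Alox5 (48.3), Alox5ap (42.5), Alox15 (27.2), Ptgis (20.2), Ptgs1 (17.6), Hpgd (14.8) and Ptges (11.9) to Ptgs2 (3.62) and Ptger4 (2.42). Neighbours from Alox5 down to Ptges overlapped in their NE ranges. Ptgds above Alox5, Ptges above Ptgs2, and Ptgs2 above Ptger4 did not overlap there. In the brimonidine group the last pair changed order, with Ptger4 at 2.69 ± 0.155 FPKM and Ptgs2 at 2.19 ± 0.438 FPKM (SD, n = 7).

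Taking the 3 comparisons in turn, 0 of the 10 genes passed both thresholds in NE against control, where 5.76% of 15950 genes did. None passed the adjusted p alone (14.1% of all genes), and 3 had an unadjusted p under 0.05 (32.9% of all genes), namely Ptgs1, Alox5 and Alox15. Only Ptgs1 had groups that did not overlap (18.3% of all genes). Of the 10 differences 8 were above 0 (43.9% over all genes), with a median log2 of 0.36 beside -0.04 over all genes. Control 2, often the lowest or highest library, enters each of these differences. Without it the difference was 0.18 for Alox5, 0.0016 for Ptges, -0.09 for Alox5ap and 0.50 for Ptgis.

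In brimonidine against NE, 0 of 10 genes passed, with limma on FPKM and with voom on the recovered fragments alike, and 2 had an unadjusted p under 0.05 (Ptgs2 and Ptger4). The same held for the whole table, with 0 genes passing both thresholds by either method and 906 of 15707 (5.77%) at an unadjusted p under 0.05. The study's own count test, at the same thresholds, reported many genes changed in both directions here. That test was not rerun, and the source of the discrepancy was not examined. The median log2 difference was 0.07 over the 10 genes and 0.01 over all genes. None of 17 marker lists had sums that separated these 2 groups, including the neutrophil, eosinophil and macrophage lists. The eosinophil sum is mostly Prg2, whose median was 717 FPKM in NE and 591 FPKM in brimonidine libraries, with overlap. Epx was likewise lower in median (80.9 and 71.4 FPKM) and Il5ra higher (0.984 and 1.15 FPKM), both overlapping. Ccr3, a chemokine receptor of that list, measured 1.72 to 2.90 FPKM in NE and 2.62 to 5.74 FPKM in brimonidine libraries. Only brimonidine 4 overlapped the NE range of Ccr3, a gene named after its values were seen.

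In brimonidine against control, 0 of 10 genes passed both thresholds (5.73% of 15947 genes did), and Ptgs1 and Alox15 passed the adjusted p alone (15.8% of all genes). Both were higher. Ptgs1, Alox5ap and Alox15 had groups that did not overlap (19.4% of all genes), and 5 of 10 had an unadjusted p under 0.05 (35.6% of all genes). The median log2 difference was 0.28 beside -0.03 over all genes. Each of these counts is to be read against its background share.

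**Figure D4:**
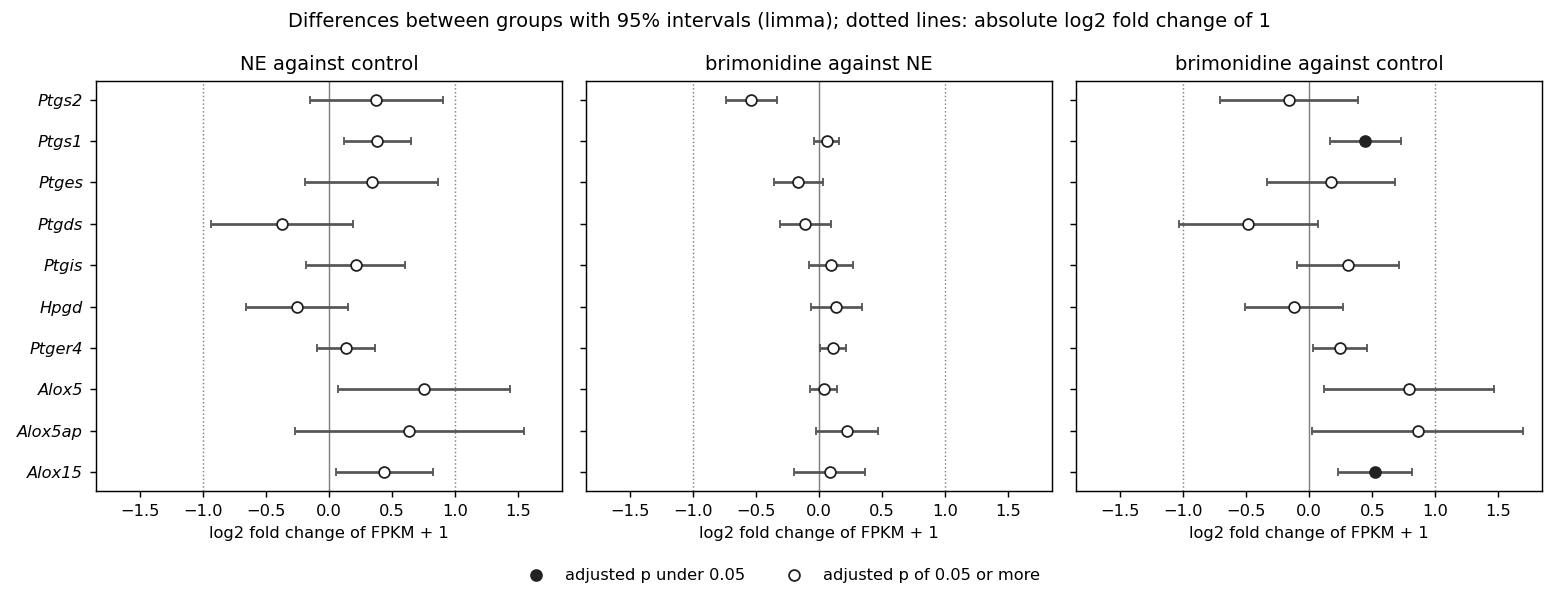
Log2 fold change of FPKM + 1 with its 95% interval (limma) for the 10 genes in NE against control, brimonidine against NE and brimonidine against control; filled points have an adjusted p under 0.05. Only Ptgs1 and Alox15 against control in the brimonidine group are filled, and the Ptgs2 interval of -0.74 to -0.34 in brimonidine against NE is the one farthest from 0 in the middle panel.

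Of the other genes of the pathway, 51 were in the table and 37 passed the filter. Those below it included Ltc4s, the synthase of cysteinyl leukotrienes, at a mean of 0.340 FPKM, and Ptgdr and Ptgdr2, the receptors for prostaglandin D2, at 0.231 and 0.0644 FPKM, all 3 named after their values were seen. Alox8 and Aloxe3, lipoxygenases of the skin that were also below the filter and were named after their values were seen, were higher in the controls. Alox8 measured 0.661, 0.648 and 0.594 FPKM in the controls, 0.0638 to 0.174 in NE and 0.0468 to 0.266 in brimonidine libraries. Aloxe3 measured 0.746, 1.11 and 0.671 FPKM in the controls, 0.0891 to 0.179 in NE and 0.0435 to 0.360 in brimonidine libraries. No exposed library reached a control for either gene. With no filter the limma differences on the log2(FPKM + 1) scale were -0.55 for Alox8 (adjusted p = 0.000262) and -0.69 for Aloxe3 (adjusted p = 0.000592) in NE, where 7.03% of all genes passed the adjusted p. In brimonidine they were -0.57 (adjusted p = 0.00249) and -0.67 (adjusted p = 0.00307), where 7.51% did. Central neuron and central glia genes were also higher in the controls, and their part in these differences was not tested. The most abundant were Fpr2, a receptor for lipoxin A4 and formyl peptides, at a mean of 130.2 FPKM, Ltb4r1, the high-affinity leukotriene B4 receptor, at 102 FPKM, and Lta4h, which makes leukotriene B4, at 85.0 FPKM. Ptges3, a cytosolic prostaglandin E synthase and co-chaperone, followed at 50.6 FPKM and Pla2g7, which degrades platelet-activating factor, at 38.9 FPKM.

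Like Alox5, Fpr2, Ltb4r1 and Lta4h were lowest in control 2. Fpr2 measured 22.4 FPKM there, against 131 and 137 in controls 1 and 3 and 115 to 173 in the exposed libraries. Ltb4r1 measured 27.5 FPKM against 104 and 84.9, and Lta4h 30.3 FPKM against 88.6 and 69.1. Ptges3 ranged from 43.7 to 58.8 FPKM over the libraries. Every NE library (up to 51.97 FPKM) was below every control (from 52.03 FPKM), with a limma adjusted p of 0.228. Groups did not overlap for 18.3% of all genes in NE against control. Pla2g7 was highest in control 2 (54.9 FPKM) and 30.2 to 43.9 FPKM in all others.

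One of the 37 genes passed both thresholds, where 5.76% of all genes did in NE against control and 5.73% in brimonidine against control. Fam213b, a prostamide and prostaglandin F synthase, measured 13.6, 24.9 and 13.1 FPKM in the controls, 6.55 to 9.13 with a median of 7.66 in NE and 4.42 to 9.33 with a median of 7.78 in brimonidine libraries. Every exposed library was below every control. Fam213b fell by 1.02 on the log2 scale in NE (SE 0.18, limma adjusted p = 0.0033) and by 1.08 in brimonidine (SE 0.23, adjusted p = 0.0106). Without control 2 the differences were -0.74 and -0.80, still past the adjusted p (0.00272 and 0.0415) but not the fold threshold. The adjusted p ran over the alternatives from 0.00102 to 0.216 in NE and from 0.000605 to 0.166 in brimonidine. Central neuron and central glia genes were also highest in the controls, and highest of all in control 2, and their part in the Fam213b difference was not tested. NE and brimonidine overlapped (-0.06, adjusted p = 0.979).

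By role, NE against control gave no gene past the adjusted p among 6 phospholipases A2 tested, 4 prostanoid receptors, 2 lipoxygenases, 9 leukotriene enzymes and exporters or 5 leukotriene and lipoxin receptors, where 14.1% of all genes passed it. At an unadjusted p under 0.05 there were 0, 1, 0, 4 and 2 genes in these groups, beside 32.9% of all genes. Of 7 prostanoid synthases 1 was lower (Fam213b), and of 4 genes of inactivation and transport 1 was higher, Abcc4, an exporter of prostaglandins (log2 0.53, limma adjusted p = 0.0402), named after its values were seen. Without control 2 its difference was 0.29 (adjusted p = 0.116), and the range over the alternatives was 0.00556 to 0.445. Log2 differences were above 0 for 8 of 9 leukotriene enzymes and exporters and 5 of 5 leukotriene and lipoxin receptors, and below 0 for 6 of 6 phospholipases A2, beside 43.9% of all genes above 0. Control 2, the lowest library for Fpr2, Ltb4r1 and Lta4h, enters each of these differences.

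In brimonidine against control, 5 of the 37 genes passed the adjusted p, where 15.8% of all genes did. They were Fam213b and, named after their values were seen, 4 others: Cbr1 (a carbonyl reductase acting on prostaglandins, -0.58, limma adjusted p = 0.0273), lower like Fam213b, and Abcc4 (0.56, adjusted p = 0.026), Dpep2 (a dipeptidase of leukotriene D4, 0.40, adjusted p = 0.0242) and Ltb4r2 (the low-affinity leukotriene B4 receptor, 0.49, adjusted p = 0.0146), all 3 higher. Ltb4r2 measured 0.385, 0.732 and 0.432 FPKM in the controls, 0.793 to 1.15 in NE and 0.968 to 1.29 in brimonidine libraries. Every exposed library was above every control, and the brimonidine mean was 2.17 times the control mean. At these low levels the pseudocount set the size of the difference: with 0.1 in place of 1 it was 1.02 for Ltb4r2 (adjusted p = 0.0114), past both thresholds, and 0.68 for Dpep2 (adjusted p = 0.0221). Cbr1 measured 17.1, 30.7 and 17.9 FPKM in the controls, 13.9 to 16.4 in NE and 12.3 to 14.6 in brimonidine libraries, so every exposed library was below every control. Central neuron and central glia genes were also highest in the controls, and highest of all in control 2, and their part in the Cbr1 difference was not tested. Abcc4 and Dpep2 were lowest of all 17 libraries in control 2, which also had the lowest late neutrophil sum, and the part of neutrophils in their differences was not tested. Without control 2 the differences were -0.32 for Cbr1 (adjusted p = 0.0205), 0.32 for Abcc4 (adjusted p = 0.0329), 0.30 for Dpep2 (adjusted p = 0.0738) and 0.59 for Ltb4r2 (adjusted p = 0.00707). Their adjusted p-values over the alternatives ranged from 0.00279 to 0.359, 0.00393 to 0.347, 0.00302 to 0.461 and 0.00156 to 0.446, the highest each time with the replicate number as a block. In brimonidine against NE 0 of 37 passed by limma or by voom, with 2 at an unadjusted p under 0.05 (5.77% of all genes).

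**Figure D5:**
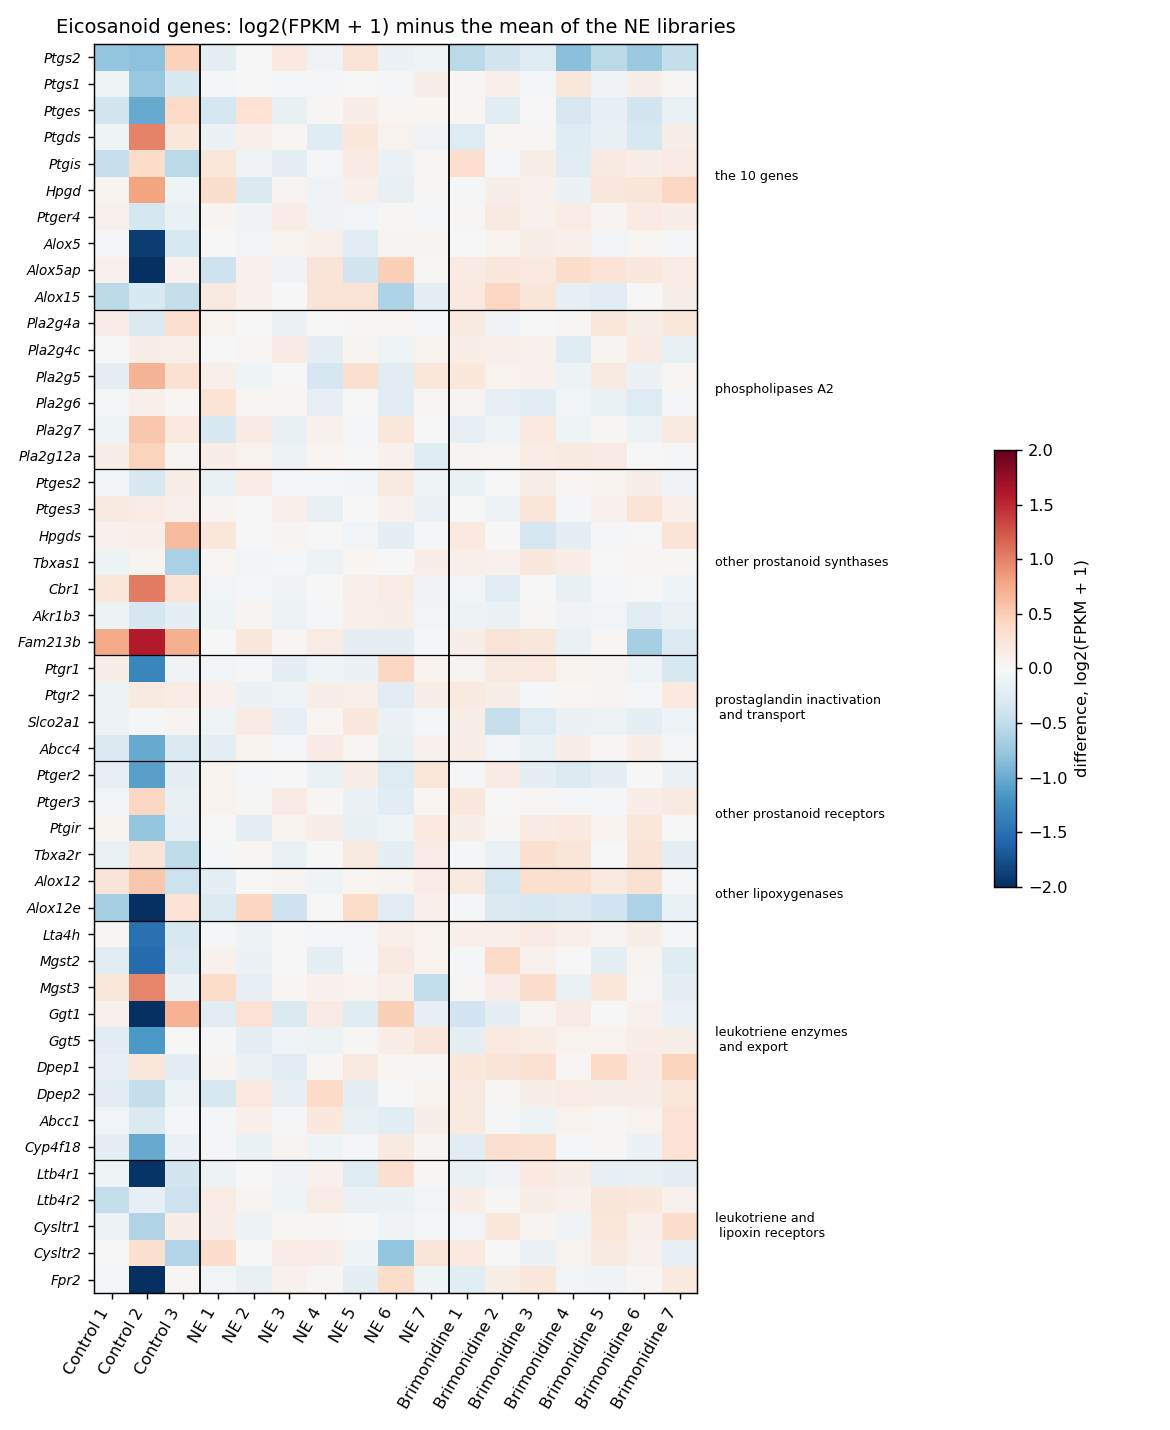
Difference of log2(FPKM + 1) from the NE mean for the 10 genes and the 37 other eicosanoid genes tested (rows, grouped by role) in the 17 libraries (columns); red is higher, blue lower, and the colours stop at -2 and 2. The column of control 2 stands out, dark blue for Ggt1 (0.695 FPKM there), Alox12e (2.66 FPKM), Alox5, Alox5ap, Fpr2 and Ltb4r1 and red for Ptgds and Fam213b.

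Across the 14 exposed libraries, the genes most like each of the 10 were listed by Pearson's r of log2(FPKM + 1) among genes whose mean there was 5 FPKM or more. These r values are descriptions over libraries of 2 groups, without a test. For Ptgs2 they were Il2ra, an interleukin-2 receptor chain (r = 0.86), Cdkn1a, a p53 target that halts the cell cycle (r = 0.855), and Tnk2, a tyrosine kinase (r = 0.855). Cdkn1a measured 26.9 to 29.9 FPKM in NE and 18.1 to 25.7 in brimonidine libraries, which like Ptgs2 did not overlap, whereas Il2ra (10.7 to 28.4 and 7.69 to 14.1) and Tnk2 (13.3 to 14.4 and 11.9 to 13.4) did.

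Ptges was most like Aqp5, a water channel of secretory epithelia (r = 0.938), and Icam1, an adhesion molecule (r = 0.921). Ptgis was most like Gna11 (r = 0.893) and the bone and Wnt pathway genes Dmp1 (r = 0.837) and Wif1 (r = 0.807). Alox5 was most like Pygl (r = 0.88), Ppp1r15b and Ggnbp2, and Alox5ap most like Bri3bp (r = 0.877), the neutrophil serpin Serpinb1a (r = 0.861) and Taf5. For Ptgs1 the list was Oas3 (r = 0.791), Igkv6-13 and Abca7, for Ptgds 0610009B22Rik (r = 0.862), Rhoc and Map1lc3b, and for Hpgd Rnf139 (r = 0.862), Coq2 and Sept7. Ptger4 was closest to Ccdc126 (r = 0.886), Rhou and Fgfr1op2, and Alox15 to Pex2 (r = 0.849), Slc29a1 and Gimap3.

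Some reads cannot be assigned with certainty where exons overlap. In the GENCODE M21 annotation, exons of Ptgs1, Ptgis, Ptger4 and Alox5ap share 148, 156, 82 and 189 bases with a measured gene on the opposite strand (Gm43621, 1110018N20Rik, Ttc33 and Gm19719). These neighbours had mean levels of 0.497, 0.187, 6.84 and 1.37 FPKM. The library kit keeps the strand, and whether the counting used it was not given in the sources used here. Ptger4 also shared 1015 bases with Gm15937 on the opposite strand.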

How the data were processed

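Cochlear RNA was extracted with TRIzol and sequenced as TruSeq Stranded mRNA libraries. The authors deposited 1 table of FPKM per gene and library. The submitters' processing notes name Trimmomatic, HISAT2, Cufflinks, HTSeq and mm10, with no versions. Positions were those of GENCODE M21 for 93.9% of 35207 genes matched. Whole fragments were recovered from the FPKM steps for 95.9% of 35029 genes above 0, and 94.7 to 95.6% of values under 200 fragments came out whole within 0.05. With merged exon lengths of M21 this gave 14457732 to 18288855 fragments per library.

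Because the values are FPKM, the study's count test (DESeq2) was not the main test. Groups followed the labels. The test took genes that reached 1 FPKM in 3 or more libraries of a comparison and ran on log2(FPKM + 1), a scale that understates changes of low genes, with limma 3.58.1 (lmFit, eBayes with trend; R 4.3.3) on the 2 groups compared and Benjamini-Hochberg adjustment over all genes tested. A gene passed with an adjusted p below 0.05 and a log2 fold change of 1 or more in either direction. With 1 library per mouse, replicates are mice. The scripts were tested on simulated data. Alternatives were a pseudocount of 0.1, no filter, median ratio scaling, quantile normalization, all 17 libraries in 1 model, a replicate block, each library left out and, chosen after seeing the data, voom on the recovered fragments.

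The 10 genes and all gene lists were chosen with earlier results of these data known. Other genes named were the pathway genes that passed in any comparison, the 5 most abundant pathway genes, and the 3 genes with the highest Pearson's r to each of the 10. One of these is not reported here. Ltc4s, Ptgdr, Ptgdr2, Alox8, Aloxe3, Alox12e, Ggt1, Ccr3, Abcc4, Cbr1, Dpep2 and Ltb4r2 fall outside this rule and were named after their values were seen. The separate values of Prg2, Epx and Il5ra were added beside those of Ccr3 in the same way. Promoter sequences are from RefSeq (GRCm38.p6).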

Additional observations from a re-analysis of the deposited data

Results flagged for a closer look

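Ptgs1 in NE 7, at 19.2 FPKM, was the highest of its group and far from the other 6 NE libraries (17.1 to 17.7 FPKM) relative to the range of the group by Dixon's criterion. It was the 1 value found in 32 groups of 7 libraries checked, and chance gives about 1 in 20 groups.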

How the results depend on the processing

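Of the alternative values of the counts and of Ptgs2 in brimonidine against NE, 232 stayed close to the value reported and 64 moved. Ptgs2 in brimonidine against NE stayed lower and short of the threshold in all 21 alternatives. Directions turned in 9 cases. NE against control turned for Hpgd (0.015 without control 2, lowest -0.42 without control 3) and Alox5ap (-0.086 without control 2, highest 1.00 without control 3). Brimonidine against NE turned for Alox5 without NE 5 (-0.00073, others up to 0.052), Alox15 without NE 6 (-0.017, others up to 0.13) and Fam213b without brimonidine 6 (0.039, others down to -0.12). Brimonidine against control turned for Ptgs2 with quantile normalization (0.016) and without control 3 (0.26, lowest -0.38 without control 2), and without control 2 for Ptges (-0.17, highest 0.53 without control 3) and Hpgd (0.15, lowest -0.29 without control 3).

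In NE against control, genes passing both thresholds numbered 918, and 368 to 934 with 1 library left out, the lowest without control 2. Genes with an adjusted p under 0.05 alone numbered 2247, 1040 (without control 2) to 3767 (without control 1) with 1 left out, and 4445 with all 17 libraries in 1 model. Of the 10 genes, 0 to 1 passed both thresholds and 0 to 2 the adjusted p with 1 left out, and 2 passed the adjusted p with all 17 in 1 model and with median ratio scaling. Other pathway genes passing were 0 to 2 with 1 left out and 0 with median ratio scaling and with quantile normalization. In brimonidine against NE the 1 gene passing the adjusted p became 0 with all 17 libraries, no filter and quantile normalization, and 0 to 2 with 1 left out. In brimonidine against control 913 genes passed, 468 (without control 2) to 1080 with 1 left out, and 2518 had an adjusted p under 0.05, 1472 (without control 2) to 4693 (without control 1) with 1 left out and 4592 with all 17 libraries. Of the 10 genes 2 passed the adjusted p, 0 to 5 with 1 left out, 4 with all 17 libraries and 1 with no filter, and 0 to 2 passed both thresholds with 1 left out. Other pathway genes numbered 0 to 2 with 1 left out, 2 with a pseudocount of 0.1 (Fam213b and Ltb4r2) and 0 with median ratio scaling. The cause of these moves was not tested. Median ratio and quantile scaling moved the median log2 difference of all genes in NE against control from -0.04 to 0.06 and 0.06.

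Replicate numbers did not pair the libraries. Same-numbered NE and brimonidine libraries correlated between -0.151 and 0.0831 in their deviations over 16416 genes, and 0 libraries correlated best with their own number. With the replicate block, 0 genes passed in NE against control (0 by adjusted p), 0 in brimonidine against NE by adjusted p, and 236 in brimonidine against control (236 by adjusted p), with 0 of the 10 genes and 0 other pathway genes. Depth limits Ptgs2 and Ptger4 most, since they rest on 112 to 390 and 169 to 340 fragments per library.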
